A study of Homo sapiens with 4 samples.

Results

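The 163 genes described here are the named antisense RNAs of MDA-MB-231 cells: long non-coding RNA genes whose symbol is a gene name followed by -AS and a number, and whose read count averaged at least 50 over the 4 libraries of the study. They were drawn from 1196 genes of this name pattern among 5120 long non-coding RNA (lncRNA) genes and 35993 genes in all, and 507 of the 1196 had no count in any library. They were selected on the mean read count alone, so that their levels are given as a description. The members nearest to the limit were FUT8-AS1 (50.25), PTOV1-AS2 (51) and LBX2-AS1 (51.75), and ALOX12-AS1, PSMG3-AS1 and ZNF213-AS1 lay just outside it at 49.75 each. Each was set beside the gene that its name gives before -AS, called its host gene below, and 157 host genes of 160 antisense RNAs were found by symbol. RPARP-AS1, H1FX-AS1 and PRR34-AS1 had no host gene of that symbol in the table.

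MDA-MB-231 is an established human triple-negative breast cancer line, which lacks the estrogen and progesterone receptors and amplified HER2. The 4 conditions were siCTGF cells with kahweol, siControl cells with kahweol, siCTGF cells without kahweol and siControl cells without kahweol, with 1 library each. siCTGF is a small interfering RNA against CTGF (CCN2, connective tissue growth factor) and siControl a control siRNA, and kahweol, a diterpene of coffee beans, was given at 50 µM for 48 h in medium without serum. All cells were thus transfected, and no vehicle was named for the cells called untreated. Kahweol was compared with untreated cells within each siRNA, and siCTGF with siControl within each treatment, and 2 comparisons of the same kind share no library. With 1 library per condition, these differences have no replicate check and no p. A fit over all 4 libraries set 2 libraries against 2 for each factor. Nothing in the labels tells whether the libraries came from separate experiments, so its p-values measure only the spread between these libraries.

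Antisense RNAs are transcribed from the strand opposite to another gene. Some start beside the start site of the host gene and run away from it, a head-to-head arrangement with a shared bidirectional promoter, some overlap its beginning or its end, and some lie within it. Many stay in the nucleus at low level. Known members act in different ways, by recruiting chromatin regulators to the host gene, by pairing with its mRNA, or by binding microRNAs far from it, as Cyrano (OIP5-AS1) does with miR-7, while for many others only transcription itself has been described.

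All 160 pairs lay on opposite strands in the coordinates of the files (GRCh37.p13). The starts overlapped in 46 pairs, the ends overlapped in 38, and 38 were head to head, with a median of 127.5 bp between the start sites. The antisense RNA lay inside the host gene in 22 pairs, the host gene inside the antisense RNA in 10, and 6 pairs were tail to tail. The start sites were within 1 kb of each other in 60 pairs. Of 150 pairs found in the GENCODE 29 annotation, 108 shared exonic bases on opposite strands and 42 shared none. Another gene lay on the same strand over 19 of the antisense RNAs. The kit marks strand, but whether the counting used it was not stated, so that reads of an antisense RNA and of an overlapping host gene cannot be told apart with certainty.

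For 4 head-to-head pairs with start sites under 250 bases apart, whose antisense RNA passed the test of the kahweol effect, the start regions show how close both genes begin. They are taken from RefSeq (GRCh38.p14), where 138 of the 163 members were found by gene ID and 9 of these now carry a name ending in -DT (divergent transcript). The windows run on the + strand from 250 bases before the start of the antisense RNA, and lie at chr3:129893621-129893920 for TMCC1-AS1, chr5:181260962-181261261 for TRIM52-AS1, chr11:10857967-10858266 for ZBED5-AS1 and chr4:67701028-67701327 for UBA6-AS1. Capitals mark the stretch from the start of the host gene, which is read leftward on the other strand, to the start of the antisense RNA, which is read rightward.
TMCC1-AS1: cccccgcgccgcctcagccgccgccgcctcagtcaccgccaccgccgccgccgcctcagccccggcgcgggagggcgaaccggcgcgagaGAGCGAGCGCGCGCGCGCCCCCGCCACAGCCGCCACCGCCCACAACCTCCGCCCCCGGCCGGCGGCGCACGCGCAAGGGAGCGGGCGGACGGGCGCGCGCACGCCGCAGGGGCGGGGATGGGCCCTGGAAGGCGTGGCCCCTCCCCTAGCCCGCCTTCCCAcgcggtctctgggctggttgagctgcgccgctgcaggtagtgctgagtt
TRIM52-AS1: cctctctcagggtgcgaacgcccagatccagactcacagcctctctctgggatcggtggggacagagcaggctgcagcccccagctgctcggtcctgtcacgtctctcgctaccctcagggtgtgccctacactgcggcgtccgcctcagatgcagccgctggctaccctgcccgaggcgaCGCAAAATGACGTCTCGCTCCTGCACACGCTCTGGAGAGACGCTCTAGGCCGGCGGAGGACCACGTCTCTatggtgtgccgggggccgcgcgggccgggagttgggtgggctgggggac
ZBED5-AS1: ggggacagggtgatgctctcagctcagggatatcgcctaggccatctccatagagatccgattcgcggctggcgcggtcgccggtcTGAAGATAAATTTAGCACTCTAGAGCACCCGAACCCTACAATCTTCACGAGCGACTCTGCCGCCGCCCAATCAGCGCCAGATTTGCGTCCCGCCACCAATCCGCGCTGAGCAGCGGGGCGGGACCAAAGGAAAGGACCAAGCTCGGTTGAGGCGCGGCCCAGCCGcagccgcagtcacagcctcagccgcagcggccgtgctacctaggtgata
UBA6-AS1: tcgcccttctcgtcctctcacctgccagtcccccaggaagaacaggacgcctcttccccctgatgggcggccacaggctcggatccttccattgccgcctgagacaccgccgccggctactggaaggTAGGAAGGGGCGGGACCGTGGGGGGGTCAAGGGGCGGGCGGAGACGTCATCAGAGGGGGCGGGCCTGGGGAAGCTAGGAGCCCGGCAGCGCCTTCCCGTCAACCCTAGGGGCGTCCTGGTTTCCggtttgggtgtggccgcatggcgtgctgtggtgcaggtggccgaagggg
In GENCODE 29, no exonic bases were shared at TMCC1, TRIM52 and UBA6, and 27.0% of the exonic bases of ZBED5-AS1 overlapped ZBED5. The start sites were 160, 69, 164 and 123 bases apart in TMCC1-AS1, TRIM52-AS1, ZBED5-AS1 and UBA6-AS1, and the windows held 49, 25, 28 and 23 CpG dinucleotides. The median was 23 CpG dinucleotides in the windows of all 138 members and 14 in those of all 27305 genes with such a window. Those genes, called all below, were not selected by their counts in these cells, whereas the members were. A GC box (GGGCGG, either strand) was present 4 times in the window of TMCC1-AS1, 5 times in that of UBA6-AS1, 2 times in that of ZBED5-AS1 and not in that of TRIM52-AS1. It was found in 56.5% of the members' windows and in 44.6% of all windows. A TATA box (TATAAA) was in none of the 4 windows, in 6.52% of the members' windows and in 12% of all. The letters CCAAT occurred 2 times in the window of ZBED5-AS1, in 33.3% of the members' windows and in 35.7% of all, and the ETS letters CCGGAAG in 19.6% of the members' windows and 10.7% of all. The antioxidant response element core TGACNNNGC was in none of the 4 windows, in 15.9% of the members' windows and in 13.6% of all. These are matches of letters only.

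The libraries held 44781516 to 59129784 counts, and the share of lncRNA genes in them was 0.735% to 0.877%. CCN2, the targeted gene, had 22.5 TPM (a length-scaled share of all transcripts) in siCTGF and 140.4 TPM in siControl cells with kahweol, and 53.9 TPM in siCTGF and 140.2 TPM in siControl cells without it. Vimentin stood at 2082 to 2819 TPM and KRT18 at 464 to 478 TPM. ESR1 was at most 0.0281 TPM in every library, whereas ERBB2 (HER2) was at 20.1 to 31.5 TPM. Of the fibroblast markers, DCN and LUM were listed at or near 0, but PDGFRB was at 2.88 to 4.54 TPM and COL1A1 at 1.08 to 1.55 TPM. The leukocyte marker CD68 was at 42.0 to 59.0 TPM. The siControl library with kahweol had the fewest counts, and 109 of the 163 members had their lowest count there. It is the tested library of 1 kahweol comparison and the reference of 1 siCTGF comparison, which therefore share it. Mitochondrial rRNA took 6.01% and 4.33% of the counts in the kahweol libraries of siCTGF and siControl cells, and 3.11% and 3.94% in the untreated ones. The part of these differences in the results was not tested.

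Antisense RNAs were mostly low. The mean TPM of the members had a median of 2.53 and a range from 0.409 to 76.3, and 25 of them reached 10 TPM. Host genes had a median of 11.9 TPM. FGD5-AS1 was the highest, with 64.0 and 59.9 TPM in siCTGF and siControl cells with kahweol and 91.5 and 89.7 TPM in those without. EPB41L4A-AS1, whose transcript holds the small nucleolar RNA SNORA13, had 69.4 and 55.4 TPM with kahweol and 49.8 and 57.8 TPM without. THAP9-AS1, MAPKAPK5-AS1, PAX8-AS1 and ZNF433-AS1 followed with means of 44.8, 33.0, 32.8 and 30.0 TPM. In the plot of the 16 highest members, the levels with and without kahweol overlapped in EPB41L4A-AS1, ZNF433-AS1, SVIL-AS1 and ZFPM2-AS1.

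**Figure D1:**
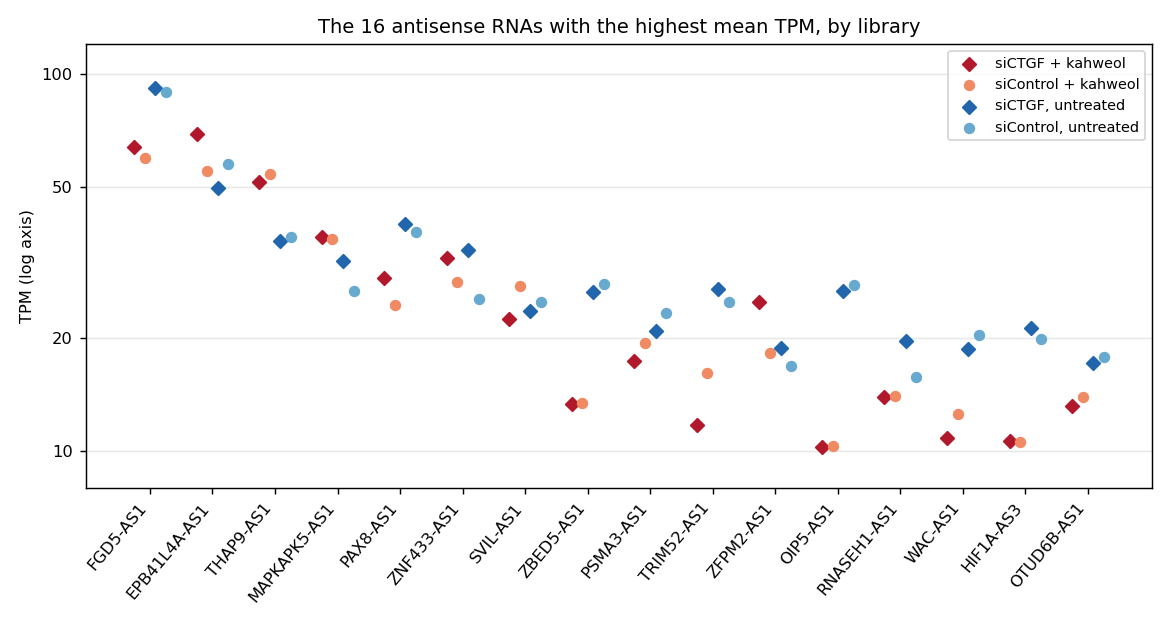
TPM on a log axis of the 16 antisense RNAs with the highest mean TPM, 1 point per library. Diamonds are siCTGF and circles siControl cells, red shades with kahweol and blue shades without; FGD5-AS1 stands at 59.9 to 91.5 TPM, and OIP5-AS1 at 10.2 and 10.3 TPM with kahweol and at 26.5 and 27.6 TPM without.

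Against its host gene, the antisense RNA was usually the lower partner. In the 139 pairs whose host gene also averaged at least 50 counts, its mean TPM was a median of 19.0% of the host's, it was under 10% in 45 pairs and under 1% in 4, and it exceeded the host in 28. VIM-AS1 averaged 0.542% of vimentin, the intermediate filament protein of mesenchymal cells, and PSMD6-AS2 0.467% of the proteasome subunit PSMD6. At the other end, TTN-AS1 was 45.2 times as high as titin per length, EPB41L4A-AS1 25.5 times as high as EPB41L4A, and PAX8-AS1 20.1 times as high as the thyroid transcription factor PAX8. FGD5 itself, an endothelial exchange factor for Cdc42, had 6 and 18 counts in the kahweol libraries of siCTGF and siControl cells and 0 in both untreated ones, although FGD5-AS1 led the members. In all, 21 antisense RNAs had a host gene with a mean under 50 counts. Across the 139 pairs, levels of the antisense RNA and of its host had a Spearman rho of 0.0155, over mean values of the same 4 libraries.

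With kahweol, antisense RNAs were more often lower than higher, in both siRNA conditions. In siControl cells, 89 of 163 members (54.6%) were under 0.7-fold, and 16 (9.82%) were over 1.3-fold of the untreated library, beside 26.3% and 28.1% of the 16599 genes tested, which averaged 10 counts or more. In siCTGF cells, 65 members (39.9%) were under 0.7-fold and 26 (16%) over 1.3-fold, beside 24.2% and 28.4% of all genes. The median log2 difference was -0.62 and -0.28 for the members in siControl and siCTGF cells, and -0.02 and 0.00 for all genes. The summed level of the members was 766 TPM in the kahweol library of siControl cells against 1151 TPM in the untreated one, and 820 TPM against 1139 TPM in siCTGF cells. In TPM, all genes were lower with kahweol too, by medians of -0.173 in siControl and -0.180 in siCTGF cells in log2(TPM + 1). In both siRNA conditions together, 54 members were under 0.7-fold each time and 10 were over 1.3-fold each time (33.1% and 6.13%), beside 18.2% and 20.7% of the genes tested.

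The host genes did not share this lean. Of 137 host genes with a mean of at least 50 counts, 48 were over 1.3-fold and 34 under 0.7-fold in siControl cells, and 42 over and 28 under in siCTGF cells, with medians of 0.00 and 0.02 on the log2 scale. Other lncRNAs lay between, with 159 of 387 under and 80 over in siControl cells, and 143 under and 106 over in siCTGF cells. The 26 divergent transcripts among them also leaned lower, with 34.6% under and 11.5% over in siControl cells, and 42.3% and 15.4% in siCTGF cells. The members had 54.6% and 39.9% under in siControl and siCTGF cells. Of 203 antisense RNAs with 10 to 50 mean counts, 41.4% were under and 24.1% over in siControl cells, and 40.9% and 27.6% in siCTGF cells. Antisense RNAs are low, and low genes leaned the same way: of 810 protein-coding genes with 100 to 200 mean counts, 41.5% were under 0.7-fold in siControl and 38.0% in siCTGF cells, beside 60.7% and 41.1% of 56 members of that count. The differences between the sets varied with the count. Among genes with 50 to 100 mean counts, the shares under 0.7-fold in siControl and siCTGF cells were 55.4% and 37.5% of 56 members, and 45.0% and 41.0% of 691 protein-coding genes, so that the members were not the more often lower set in siCTGF cells. Among genes with 200 to 500 mean counts, the shares under 0.7-fold were 58.1% and 45.2% of 31 members, and 37.1% and 34.7% of 1404 protein-coding genes. Above 500 mean counts they were 30.0% and 35.0% of 20 members, and 18.4% and 18.2% of 9533 protein-coding genes.

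**Figure D2:**
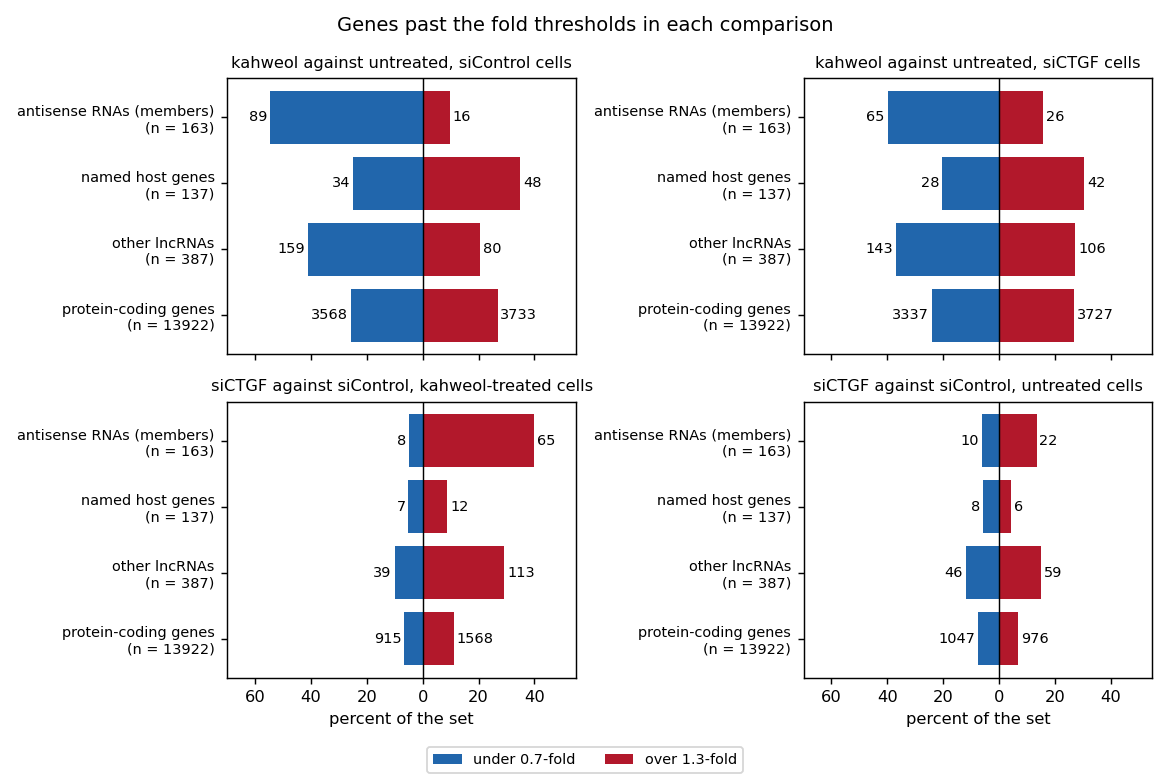
Percent of each gene set under 0.7-fold (blue, to the left) and over 1.3-fold (red, to the right) in the 4 comparisons, with the number of genes at each bar. The antisense RNAs show 89 genes under and 16 over with kahweol in siControl cells, while the named host genes show 34 under and 48 over.

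The fit over all 4 libraries called 44 members (27.0%) lower and 8 (4.91%) higher with kahweol at an adjusted p under 0.05 (edgeR quasi-likelihood test), beside 23.6% and 22.9% of all 16599 genes. The share called lower was thus near that of all genes, and the share called higher was below it. Of the 26 divergent transcripts, 26.9% were called lower and 3.85% higher. The fit has 1 residual degree of freedom, and it takes any difference between siRNAs in the response to kahweol as noise. DESeq2 called 34 lower and 4 higher, and limma-voom 50 lower and 8 higher.

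OIP5-AS1, the cytoplasmic lncRNA Cyrano with its miR-7 site, fell with the smallest p. It had 2363 and 2161 counts in the siCTGF and siControl libraries with kahweol, against 6253 and 7306 counts without. That is a log2 difference of -1.22 (95% counting interval -1.32 to -1.13) in siControl cells and of -1.12 (-1.22 to -1.02) in siCTGF cells, with an edgeR adjusted p of 0.000102. These intervals cover counting error only, as those below do. Both kahweol libraries lay below both untreated libraries, and the siCTGF differences were 0.09 with kahweol and -0.02 without. OIP5, a centromere protein that helps to load CENP-A, differed by -0.61 in siControl and by -0.03 in siCTGF cells on the log2 scale and did not pass the test (adjusted p = 0.169, edgeR).

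Several other antisense RNAs fell further. SLCO4A1-AS1 had 77 and 84 counts in siCTGF and siControl cells with kahweol, against 387 and 567 counts without (log2 change in the fit -2.13, SE 0.24, edgeR adjusted p = 0.000338). Its host SLCO4A1, an organic anion transporter that takes up thyroid hormone, fell alongside (-2.16, SE 0.14, edgeR adjusted p = 5.44e-05). SERTAD4-AS1 had 53 and 68 counts with kahweol against 296 and 480 without (-2.24, SE 0.26), and SERTAD4 fell too (-1.73, SE 0.20). DDN-AS1 had 38 and 31 counts with kahweol against 214 and 247 without, and FAM83H-AS1 had 31 and 22 against 193 and 194 (edgeR adjusted p = 0.00111 and 0.00127). In each of these, both kahweol libraries were below both untreated ones. FAM83H, which organizes keratin filaments, fell as well (-0.98, SE 0.12), whereas DDN, the dendrin gene, did not pass the test (-0.98, SE 0.41, edgeR adjusted p = 0.0884).

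**Figure D3:**
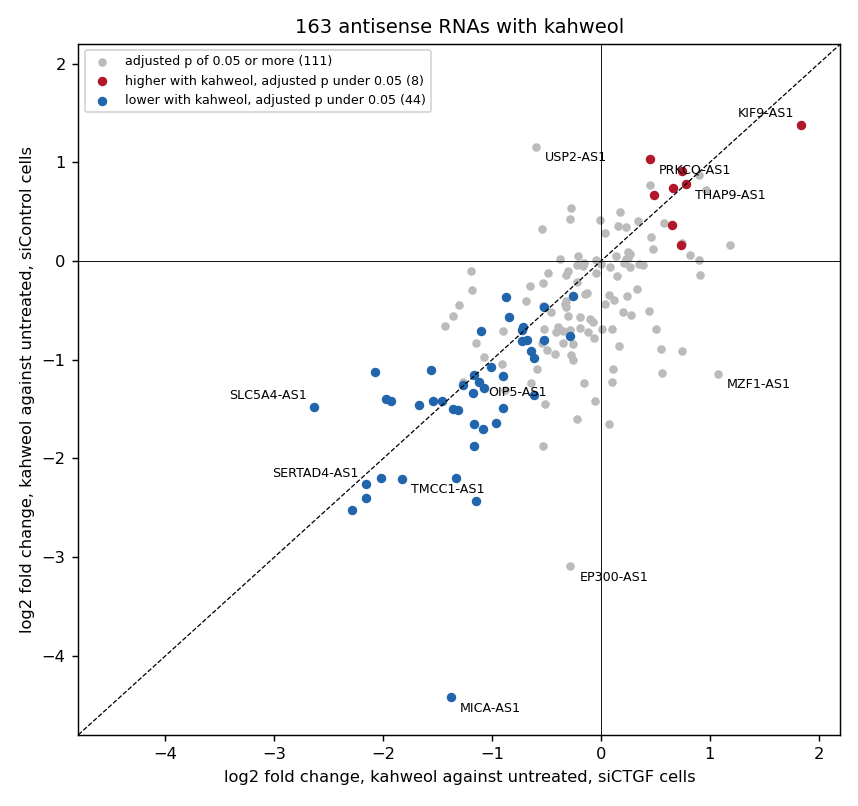
Log2 fold change with kahweol of the 163 antisense RNAs in siCTGF cells (x axis) and siControl cells (y axis), 1 point per gene, with the dashed line of equal values. Blue points are the 44 genes called lower and red points the 8 called higher in the fit over all libraries; EP300-AS1 and MICA-AS1 lie far below the line, and MZF1-AS1 and USP2-AS1 lie in opposite quadrants.

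Among the other members that fell, NOP14-AS1 had 324 and 303 counts with kahweol in siCTGF and siControl cells, against 890 and 980 without (log2 change -1.17, SE 0.14, edgeR adjusted p = 0.0005). NOP14, a nucleolar factor of the small ribosomal subunit, did not pass the test at -0.09 (SE 0.09). VIM-AS1 had 395 and 351 counts with kahweol against 969 and 1074 without (-1.04, SE 0.13), and vimentin stood at 2501 and 2082 TPM with kahweol and at 2819 and 2750.4 TPM without (-0.04, SE 0.07, edgeR adjusted p = 0.662). LOXL1-AS1 fell by 1.19 on the log2 scale (SE 0.21), as did LOXL1, a crosslinking enzyme of elastin, by 0.68 (SE 0.20). TMPO-AS1 fell by 1.58 (SE 0.30) and the nuclear lamina protein gene TMPO by 0.41 (SE 0.08). PXN-AS1 fell by 1.72 (SE 0.36) and PXN, which encodes the focal adhesion protein paxillin, by 0.39 (SE 0.09). NNT-AS1 fell by 0.72 (SE 0.19), and NNT, a transhydrogenase of the inner mitochondrial membrane, by 0.30 (SE 0.09). RPARP-AS1 had 92 and 98 counts with kahweol against 331 and 384 without (-1.50, SE 0.25). DBH-AS1, with 55 and 80 counts with kahweol in siCTGF and siControl cells and 164 and 280 without, fell by 1.28 (SE 0.30), while its host, the dopamine beta-hydroxylase gene of noradrenaline-making cells, was listed at 0 in every library. SLC5A4-AS1 fell by 2.13 (SE 0.45) with 24 and 27 counts with kahweol against 193 and 113 without. FGD5-AS1 fell by 0.30 (SE 0.08, edgeR adjusted p = 0.0157) and MCM3AP-AS1 by 0.92 (SE 0.29, edgeR adjusted p = 0.0346). MCM3AP, which acts in mRNA export, rose by 0.30 (SE 0.09).

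The 8 members that rose with kahweol included several of the most abundant ones. THAP9-AS1 had 3149 and 3003 counts in siCTGF and siControl cells with kahweol, against 2238 and 2533 without, a log2 difference of 0.78 in both siRNA conditions (counting interval 0.67 to 0.89 in each, edgeR adjusted p = 0.000452). It overlaps SEC31A and the small nucleolar RNA genes SNORD143 and SNORD144 on its own strand, whose reads may be among its counts. THAP9, a transposase-like gene, was at 2.3 and 2.36 TPM with kahweol and 2.22 and 2.15 TPM without, and did not pass the test. MAPKAPK5-AS1 rose by 0.70 (SE 0.10), with 36.9 and 36.5 TPM with kahweol in siCTGF and siControl cells and 31.9 and 26.6 TPM without, whereas the stress kinase gene MAPKAPK5 stayed between 11.3 and 12.8 TPM. KIF9-AS1 showed the largest rise, with 175 and 138 counts with kahweol against 58 and 75 without (1.64, SE 0.34). KIF9, a kinesin, did not pass the test at 0.72 (SE 0.28). EPB41L4A-AS1 rose by 0.45 (SE 0.14), ZFPM2-AS1 by 0.51 (SE 0.16) and SH3BP5-AS1 by 0.84 (SE 0.29) in the fit. The log2 difference of EPB41L4A-AS1 was 0.17 in siControl and 0.74 in siCTGF cells, and that of ZFPM2-AS1 0.36 and 0.65. Both were thus below 1.3-fold in siControl cells. PRKCQ-AS1 rose by 0.75 (SE 0.26), and its host PRKCQ, protein kinase C theta, by 1.48 (SE 0.29). PSMD6-AS2 and ZNF790-AS1 were over 1.3-fold in both siRNA conditions without passing the test, with adjusted p of 0.0896 and 0.15 (edgeR).

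Antisense RNA and host gene changed together in some pairs and differently in others with kahweol. In siControl cells, both were under 0.7-fold in 24 of 139 pairs and both over 1.3-fold in 7, while the antisense RNA was under and the host over in 17 and the reverse held in 2. In siCTGF cells, both were under in 16, both over in 11, antisense under with host over in 14, and the reverse in 1. The log2 change of the antisense RNA lay below that of its host in 103 of 139 pairs in siControl and in 90 in siCTGF cells. It lay more than 1 log2 unit below in 38 and 36 pairs, of which 25 were shared, and more than 1 above in 8 and 10, of which 4 were shared. Of 25 pairs of a divergent transcript and its gene, the transcript lay below in 17 in siControl and 16 in siCTGF cells. It lay more than 1 below in 7 and 7, and more than 1 above in 0 and 0. Across the pairs, the log2 changes of antisense RNA and host had a Pearson r of 0.24 and 0.36 in siControl and siCTGF cells. These points share their libraries, and overlapping pairs may share reads. In the 41 pairs with overlapping starts, r was 0.47 and 0.43, and in the 37 head-to-head pairs 0.17 and 0.25. Of the 44 antisense RNAs called lower in the fit, 35 had a host with at least 50 mean counts: 16 of these hosts were called lower, 6 higher and 13 neither way. Among all 137 host genes with at least 50 mean counts, 37 were called lower (27.0%) and 44 higher (32.1%), beside 23.6% and 22.9% of all genes tested.

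**Figure D4:**
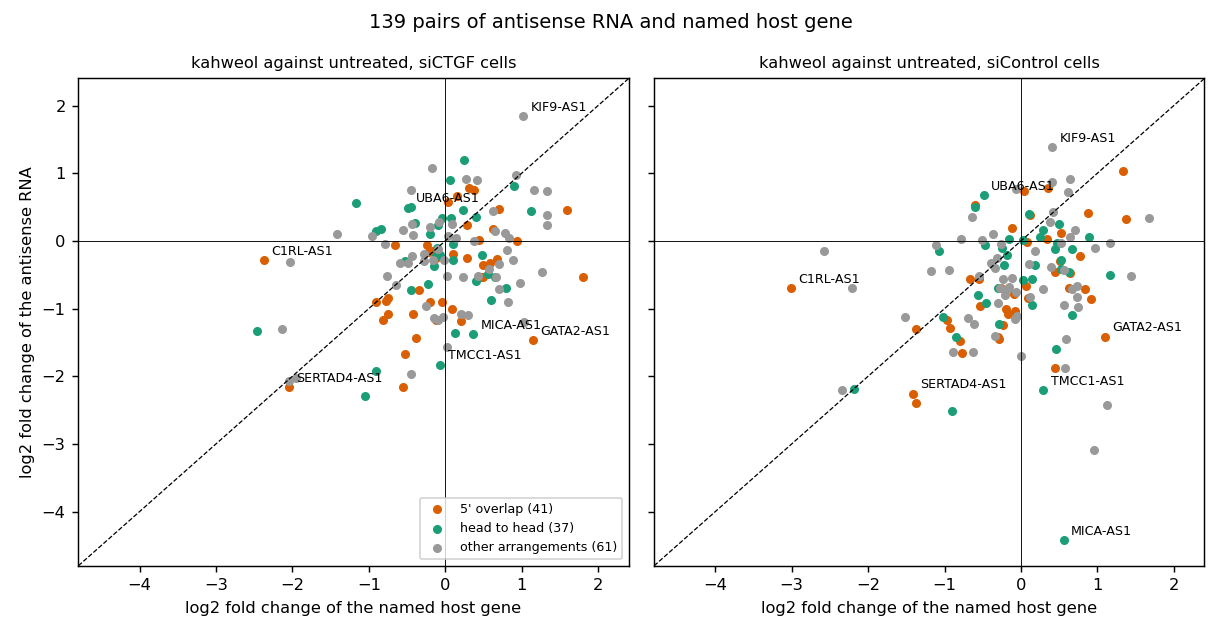
Log2 fold change with kahweol of the antisense RNA (y axis) and of its named host gene (x axis) in 139 pairs, in siCTGF cells on the left and siControl cells on the right, with the dashed line of equal change. Points below the line, 90 in siCTGF and 103 in siControl cells, are pairs in which the antisense RNA was lower relative to its host.

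Among the 139 pairs, ranked by the smaller of both antisense-minus-host differences with kahweol where these had the same sign, GATA2 came first. GATA2 is a zinc finger transcription factor of blood and endothelial cells. GATA2-AS1 had 1.36 and 1.10 TPM in siCTGF and siControl cells with kahweol, against 4.55 and 3.51 TPM without, and fell by 1.46 on the log2 scale (SE 0.28, edgeR adjusted p = 0.00405). GATA2 had 15.4 and 16.3 TPM with kahweol against 8.35 and 8.87 TPM without, and rose by 1.13 (SE 0.10, edgeR adjusted p = 0.000158). The antisense RNA was therefore at 8.81% and 6.74% of its host with kahweol, and at 54.5% and 39.5% without. The genes overlap at their starts, but no exonic bases were shared in GENCODE 29.

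WAC-AS1, which starts 425 bp from WAC, had 10.8 and 12.5 TPM with kahweol in siCTGF and siControl cells and 18.7 and 20.3 TPM without, and fell by 0.50 (SE 0.09). WAC, an adaptor for the ubiquitination of histone H2B, rose by 0.64 (SE 0.07), with 84.9 and 87.6 TPM with kahweol and 65.1 and 66.8 TPM without. TNRC6C-AS1 fell by 0.80 (SE 0.17), and TNRC6C, a scaffold of microRNA silencing, rose by 0.86 (SE 0.11). HIF1A-AS3 fell by 0.70 (SE 0.24) and HIF1A, the oxygen-regulated transcription factor, rose by 0.72 (SE 0.06). HIF1A-AS2, which overlaps HIF1A-AS3 on the same strand, had -0.59 (SE 0.27) and did not pass the test. EMC3-AS1, at -0.49 (SE 0.21), did not pass it either, while EMC3, a subunit of the membrane insertase of the endoplasmic reticulum, rose by 1.35 (SE 0.10).

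The head-to-head pairs printed above behaved in different ways. TMCC1-AS1 had 71 and 43 counts with kahweol in siCTGF and siControl cells, against 313 and 296 without, and fell by 2.04 (SE 0.29, edgeR adjusted p = 0.00106). TMCC1, an endoplasmic reticulum protein that starts 160 bases away, had 3.19 and 4.25 TPM with kahweol and 4.04 and 4.17 TPM without, and did not pass the test (adjusted p = 0.554, edgeR). At ZBED5, both genes fell: ZBED5-AS1 had 13.4 and 13.5 TPM with kahweol in siCTGF and siControl cells, against 26.5 and 27.7 TPM without (-0.77, SE 0.14), and ZBED5 had 13.8 TPM in each kahweol library against 22.7 and 23.8 TPM without (-0.51, SE 0.10). UBA6-AS1 and its host went apart in the other direction. UBA6-AS1 had 7.50 and 8.19 TPM with kahweol and 6.39 and 6.0 TPM without, and rose by 0.58 (SE 0.16). UBA6, an activating enzyme for ubiquitin and FAT10, had 27.1 and 28.8 TPM with kahweol and 45.5 and 47.2 TPM without, and fell by 0.48 (SE 0.07). TRIM52-AS1 fell by 0.62 (SE 0.17) with 326 and 401 counts with kahweol against 730 and 746 without, and TRIM52 was at 0.40 (SE 0.18), short of the threshold.

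**Figure D5:**
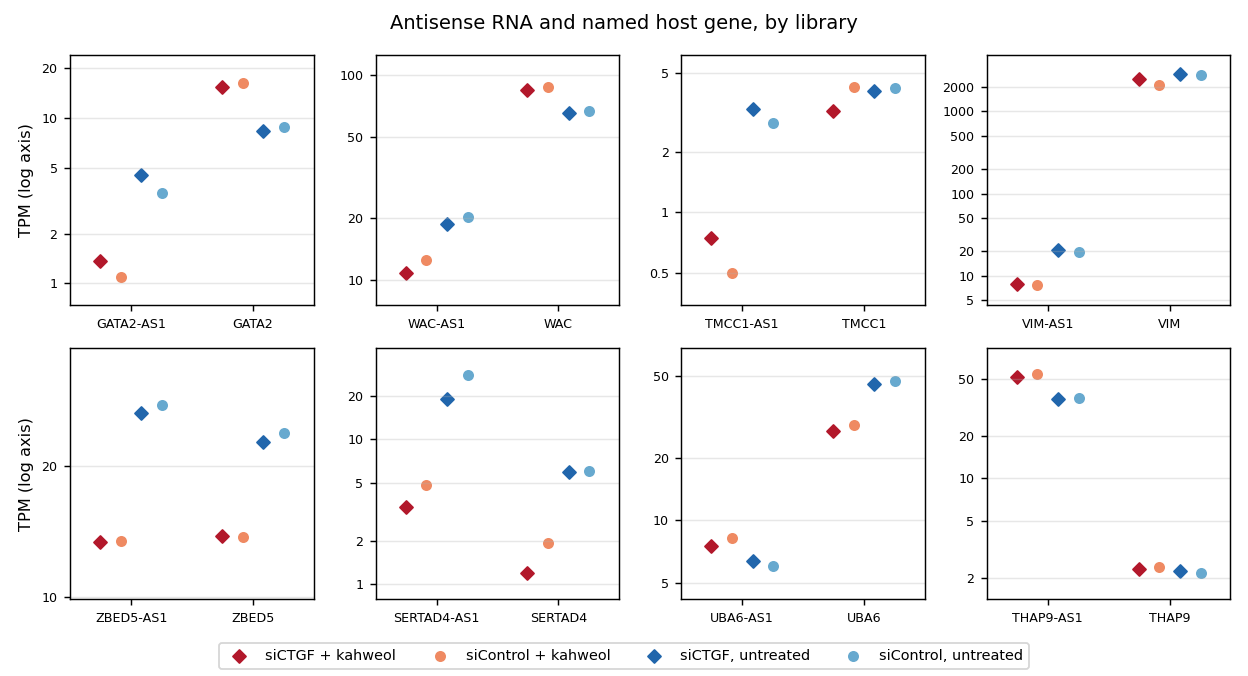
TPM on log axes of 8 antisense RNAs and their named host genes, 1 point per library, diamonds for siCTGF and circles for siControl cells, red shades with kahweol and blue shades without. GATA2-AS1 and WAC-AS1 are low with kahweol while GATA2 and WAC are high, ZBED5-AS1 and SERTAD4-AS1 are low together with their hosts, and UBA6-AS1 and THAP9-AS1 are high.

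In other pairs the host gene was the partner that moved. Of 139 pairs in siControl cells, the host alone was over 1.3-fold in 25 and under 0.7-fold in 8. The antisense RNA alone was over in 6 and under in 31. In siCTGF cells, the host alone was over in 18 and under in 11, and the antisense RNA alone in 12 and 23. C1RL, a complement C1r-like protease gene, fell by 2.69 (SE 0.21, edgeR adjusted p = 8.93e-05), with 153 and 76 counts with kahweol in siCTGF and siControl cells against 976 and 901 without. C1RL-AS1 had 181 and 138 counts with kahweol against 269 and 326 without, and did not pass the test at -0.50 (SE 0.25). AGAP2, a GTPase-activating protein for Arf, fell by 2.33 (SE 0.25), and ARRDC1, an arrestin-domain protein of budding microvesicles, by 1.81 (SE 0.18). AGAP2-AS1 and ARRDC1-AS1 stood at -0.23 (SE 0.17) and -0.30 (SE 0.22) without passing the test. SVIL, encoding supervillin, fell by 0.60 (SE 0.08), while SVIL-AS1 had 0.26 (SE 0.10, edgeR adjusted p = 0.0759).

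CTGF knockdown left few members past the thresholds in untreated cells and more in kahweol-treated cells. Without kahweol, 22 members (13.5%) were over 1.3-fold and 10 (6.13%) under 0.7-fold of the siControl library, beside 9.63% and 8.99% of all genes, with a median log2 difference of 0.01. With kahweol, 65 (39.9%) were over and 8 (4.91%) under, beside 14.7% and 7.83%, with a median of 0.26. That comparison has the siControl kahweol library as its reference, in which 109 members had their lowest count. Other lncRNAs leaned the same way there, with 113 of 387 over and 39 under, and host genes did so little, with 12 of 137 over and 7 under. Between the 2 siCTGF comparisons, 10 members were over each time (6.13%) and 1 was under each time (0.613%), beside 3.25% and 2.24% of the genes tested.

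No member passed the fit for the siCTGF effect. It called 11 genes higher (0.0663%) and 10 lower (0.0602%) of 16599, and 0 members, while 4 members lay higher and 0 lower where the p was left unadjusted, again under 0.05 (edgeR), beside 5.13% and 4.78% of all genes. DESeq2 and limma-voom called 0 members as well. CCN2 itself had an edgeR adjusted p of 0.0553, although it was lower in both siCTGF libraries than in both siControl libraries.

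ZEB1-AS1 had the largest difference of the same sign in both siCTGF comparisons, ranked by the smaller of them. It had 166 counts in siCTGF and 78 in siControl cells with kahweol, and 254 counts in siCTGF and 157 in siControl cells without. The log2 difference was 1.03 (counting interval 0.48 to 1.64) and 0.89 (0.49 to 1.34), with an edgeR adjusted p of 0.302. ZEB1, a repressor of E-cadherin and a driver of the epithelial-mesenchymal transition, differed by 0.07 and 0.12, and was at 42.9 and 43.4 TPM with kahweol and at 33.8 and 32.5 TPM without. HMGN3-AS1 was higher by 0.70 and 0.83 in siCTGF cells with and without kahweol, RAB11B-AS1 by 0.84 and 0.71, and PPP1R12A-AS1 by 0.52 and 0.60. Their hosts, a nucleosome-binding protein, a GTPase of recycling endosomes and the targeting subunit of myosin phosphatase, differed by values between -0.34 and 0.27. LBX2-AS1, SLFNL1-AS1 and PSMD6-AS2 were also over 1.3-fold in both comparisons, and DBH-AS1 was under 0.7-fold in both (-0.57 and -0.56). These members held between 20 and 280 counts per library.

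MICA-AS1 varied most between libraries. It starts 241 bp from MICA, the stress-induced ligand of the NKG2D receptor of natural killer cells. It had 51 counts in siCTGF and 2 in siControl cells with kahweol, and 165 in siCTGF and 112 in siControl cells without. The log2 difference with kahweol was -4.42 (counting interval -10.60 to -2.74) in siControl cells and -1.38 (-2.07 to -0.72) in siCTGF cells, and the siCTGF difference was 3.80 (2.05 to 10.02) with kahweol and 0.75 (0.25 to 1.27) without. It was the only member with under 10 counts in a library. MICA stood between 86.4 and 113.1 TPM. EP300-AS1 likewise had 53 counts in siCTGF and 11 in siControl cells with kahweol, and 79 in siCTGF and 154 in siControl cells without. Its log2 difference with kahweol was -3.09 in siControl and -0.28 in siCTGF cells, and it did not pass the test of the kahweol effect (adjusted p = 0.0988, edgeR). EP300, a histone acetyltransferase, rose by 0.92 with kahweol (SE 0.09). In all, 9 members had under 25 counts in the siControl kahweol library, 1 in the siCTGF kahweol library and 0 in either untreated library.

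The siRNA and kahweol contrasts did not always run the same way. For kahweol, 6 members (3.68%) were past opposite thresholds in siControl and siCTGF cells, beside 2.3% of the genes tested. For siCTGF, 7 members (4.29%) were past opposite thresholds with and without kahweol, which is near the 4.08% of the genes tested. PAXIP1-AS2, whose host PAXIP1 is part of histone methyltransferase complexes, had 151 and 87 counts with kahweol in siCTGF and siControl cells and 109 and 239 without, so that kahweol differed by -0.91 on the log2 scale in siControl and by 0.74 in siCTGF cells. PAXIP1-AS1, at the other end of the same host, differed by -0.69 in siControl and by 0.50 in siCTGF cells, and PAXIP1 by -0.30 and -0.45. SUCLG2-AS1 had 71 and 36 counts with kahweol in siCTGF and siControl cells and 58 and 117 without, whereas SUCLG2, a subunit of succinyl-CoA ligase, fell by 1.09 with kahweol (SE 0.09, edgeR adjusted p = 0.000124). SPRY4-AS1 had 81 and 34 counts with kahweol and 115 and 154 without.

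Other members of known name showed no difference past the test. PSMA3-AS1 had 17.4 and 19.3 TPM with kahweol in siCTGF and siControl cells and 20.9 and 23.2 TPM without (-0.02, SE 0.10), while PSMA3, a core proteasome subunit, rose by 0.45 (SE 0.08). SBF2-AS1 (-0.45, SE 0.19), PCBP1-AS1 (0.03, SE 0.40), TTN-AS1 (0.16, SE 0.22), PAX8-AS1 (-0.23, SE 0.09) and ZNF433-AS1 (0.29, SE 0.14) did not pass the test of the kahweol effect. ZNF433, a zinc finger gene within ZNF433-AS1, rose by 1.51 (SE 0.22). NRSN2-AS1 was at 0.00 (SE 0.32), although NRSN2 fell by 0.99 (SE 0.11), and LURAP1L-AS1 was at -0.09 (SE 0.44), although LURAP1L rose by 1.62 (SE 0.33).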

How the data were processed

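Total RNA of the 4 conditions was depleted of rRNA and made into libraries with a stranded kit (TruSeq Stranded Total RNA). The submitters' processing notes name Trimmomatic 0.38, FastQC 0.11.7, HISAT2 2.1.0, Bowtie2 2.3.4.1 and StringTie 2.1.3b, and the build GRCh37.p13; the strand setting of the counting was not given in the sources used here. The authors deposited estimated counts of reads per gene from StringTie, which were whole numbers, with FPKM and TPM values, and for each library a coverage signal from which only gene positions were used. All 4 libraries have a group from the labels, and 0 columns of other samples were present.

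The counts were scaled by TMM (edgeR 4.0.16, R 4.3.3) over 16599 genes averaging 10 counts or more, and log2 differences were taken with a prior count of 2. Over means a ratio above 1.3 and under a ratio below 0.7, after the thresholds of the study. Counting intervals are exact Clopper-Pearson intervals at 95%, taking 2 reads as 1 fragment, and cover counting error only. The fit over 4 libraries used edgeR's quasi-likelihood test with the other factor as covariate and Benjamini-Hochberg adjustment over all 16599 genes. Each SE was derived from that test, as the absolute log2 change divided by the square root of its F statistic. DESeq2 1.42.0, limma 3.58.1, size-factor and total-count scaling, a prior count of 0.5, log2(TPM + 1), a 2-fold threshold, a mean count of at least 200, no count filter and no covariate were the alternatives.

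Levels of different genes are compared in TPM, which is per length. Genes named are the 12 highest members, up to 8 past the same threshold in both comparisons of a factor each way, up to 8 pairs per factor with the largest antisense-minus-host difference, up to 10 called per effect and direction, up to 6 past opposite thresholds, and members of a list of 37 known antisense RNAs, each with its host gene. FUT8-AS1, PTOV1-AS2, ALOX12-AS1, PSMG3-AS1, ZNF213-AS1, H1FX-AS1 and PRR34-AS1 were named for the rule or the missing host, and PRR34-AS1 also as the one further member past opposite thresholds. The members and lists were chosen with earlier results of these data known.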

Additional observations from a re-analysis of the deposited data

Results flagged for a closer look

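A total of 8 antisense RNAs were past opposite thresholds, over 1.3-fold in one comparison and under 0.7-fold in the other of the same contrast, 7 for siCTGF and 6 for kahweol. By sign alone, 70 of 163 members differed in opposite directions for siCTGF and 34 for kahweol. The difference itself was not tested, since each value rests on 1 library per condition. For any gene, the gap between its siCTGF differences equals the gap between its kahweol differences by arithmetic. The second gap is therefore no further observation. MZF1-AS1 had 64 counts in siCTGF and 32 in siControl cells with kahweol, and 36 in siCTGF and 105 in siControl cells without, so that the siCTGF log2 difference was 0.92 with and -1.29 without kahweol, 2.21 apart, and the kahweol difference was 1.07 in siCTGF and -1.14 in siControl cells, also 2.21 apart. USP2-AS1 ran the other way, with siCTGF differences of -0.82 with and 0.94 without kahweol (-1.76 apart), and kahweol differences of -0.60 in siCTGF and 1.16 in siControl cells (-1.76 apart). SUCLG2-AS1 had siCTGF differences of 0.91 with and -0.78 without kahweol and kahweol differences of 0.56 in siCTGF and -1.13 in siControl cells, 1.69 apart in both contrasts. PAXIP1-AS2 had 0.74 with and -0.91 without kahweol for siCTGF, and 0.74 in siCTGF and -0.91 in siControl cells for kahweol, 1.66 apart in both. CD27-AS1 had 0.49 with and -0.94 without kahweol for siCTGF, and 0.55 in siCTGF and -0.89 in siControl cells for kahweol, 1.44 apart in both. EP300-AS1 had a siCTGF difference of 2.07 with and -0.74 without kahweol, 2.81 apart. PRR34-AS1 had a siCTGF difference of 0.43 with and -0.77 without kahweol, 1.20 apart. PAXIP1-AS1 had a kahweol difference of 0.50 in siCTGF and -0.69 in siControl cells, 1.20 apart.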

How the results depend on the processing

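Of 116 alternative values, 80 stayed within the limits of the main value, 34 moved and 2 reversed. The reversed ones are the median log2 difference of the members for siCTGF without kahweol, which was -0.0093 with total counts and -0.0379 with log2(TPM + 1), beside 0.01. Total counts and log2(TPM + 1) shifted the median of all genes with kahweol to -0.149 and -0.173 in siControl and to -0.154 and -0.180 in siCTGF cells. Total counts gave member medians of -0.75 in siControl and -0.44 in siCTGF cells with kahweol, which relative to all genes is -0.60 and -0.28 as in the main analysis. With log2(TPM + 1), which compresses low genes, the member median was -0.45 with kahweol in siCTGF cells and 0.0772 for siCTGF with kahweol; members over 1.3-fold numbered 6 and 8 with kahweol in siControl and siCTGF cells, 28 and 12 for siCTGF with and without kahweol; pairs with the antisense more than 1 above its host numbered 4 in each kahweol comparison and 4 for siCTGF with kahweol, and more than 1 below 24, 19, 1 and 0 in siControl and siCTGF cells with kahweol and for siCTGF with and without it. A 2-fold threshold left 3 over and 48 under with kahweol in siControl cells, 3 over and 36 under in siCTGF cells, 10 over and 1 under for siCTGF with kahweol, and 0 over and 2 under without. Members with at least 200 mean counts gave 5 over and 24 under, 9 over and 21 under, 12 over and 0 under, and 4 over and 0 under in the same order. A prior count of 0.5 gave 1 pair more than 1 above its host for siCTGF without kahweol. In the fit, DESeq2 and the run without a count filter each called 4 members higher with kahweol. Leaving out 1 library leaves 3 libraries and no residual degree of freedom, and its values equal those of the comparison that keeps both libraries; no test was run. The labels give 1 library per condition and so no replicate numbers to pair; the fit instead compares libraries within the other factor, and without that term it called 44 members lower and 7 higher with kahweol and 0 either way for siCTGF. The depth limits members with few counts, such as MICA-AS1.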
